A study of Saccharomyces cerevisiae with 6 samples.

Results

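The genes RPL1A to RPL20B encode the first-numbered proteins of the large subunit of the cytosolic ribosome of Saccharomyces cerevisiae, and their mRNAs were followed from total yeast RNA into RNA that had condensed in a test tube. The 35 genes were taken by their identifiers from a table of 6603 open reading frames: all copies of RPL1 to RPL20, without RPL7A and RPL7B, whose introns hold small nucleolar RNAs. They comprise 16 paralog pairs, named A and B, and 3 single genes, RPL3, RPL5 and RPL10. All 35 were found, and all 35 passed the filter on low values, which left 5670 genes for the test. Assemblies (3 libraries) were formed from phenol-extracted, log-phase RNA of BY4741 in 150 mM NaCl, 10% polyethylene glycol and 1 mM MgCl2 at 150 µg/mL RNA, and were pelleted. Total RNA of the same strain (3 libraries) served for comparison; its labels name the same salt and polyethylene glycol, so how it was handled before library making is not settled here. Both kinds of library were depleted of ribosomal RNA. BY4741 is a haploid laboratory strain with deleted marker genes: LEU2 and MET17 were listed at 0 in all 6 libraries, URA3 was above 0 in 1 library, by 1 read, and HIS3 had 159 to 204 normalised reads in assemblies, against 221 to 293 in total RNA.

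The large subunit joins amino acids at its peptidyl transferase centre, which is made of RNA, and the protein leaves through a tunnel in the subunit. Ribosomal proteins fold and hold the RNA, form mobile stalks that guide transfer RNAs and factors, and line the tunnel. In budding yeast most of them are encoded by paralog pairs left by an ancient duplication of the genome, whose copies make nearly the same protein from separate loci. Their mRNAs are short and among the most abundant of a growing cell.

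The paralogs can be told apart only at the bases in which they differ, so stretches of the coding sequence are shown for pairs the results turn on. For each pair the 60-base window of 1 exon with the most differences is given, 5′ to 3′ on the coding strand, from the RefSeq genome of build R64, and capitals mark the bases that differ between the copies. RPL17, RPL9 and RPL20 had differences of over 1 between copies on the log2 scale, RPL16 had the smallest difference and RPL1 has the most similar copies.
RPL17A (chrXI:109272-109331, plus strand): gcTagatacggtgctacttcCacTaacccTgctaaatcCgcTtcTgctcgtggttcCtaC
RPL17B (chrX:90789-90848, plus strand): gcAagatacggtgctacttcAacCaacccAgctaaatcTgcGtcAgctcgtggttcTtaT
RPL9A (chrVII:227757-227816, minus strand): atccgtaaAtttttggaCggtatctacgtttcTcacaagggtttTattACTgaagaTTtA
RPL9B (chrXIV:500194-500253, plus strand): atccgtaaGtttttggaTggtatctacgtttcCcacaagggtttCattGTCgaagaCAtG
RPL20A (chrXIII:753683-753742, minus strand): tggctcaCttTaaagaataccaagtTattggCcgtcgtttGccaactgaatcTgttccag
RPL20B (chrXV:900708-900767, minus strand): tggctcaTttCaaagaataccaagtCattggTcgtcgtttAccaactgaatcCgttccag
RPL16A (chrIX:99025-99084, minus strand): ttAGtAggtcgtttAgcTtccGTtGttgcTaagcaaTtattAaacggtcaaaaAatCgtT
RPL16B (chrXIV:494454-494513, minus strand): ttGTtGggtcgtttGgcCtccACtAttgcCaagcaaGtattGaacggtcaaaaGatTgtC
RPL1A (chrXVI:135790-135849, plus strand): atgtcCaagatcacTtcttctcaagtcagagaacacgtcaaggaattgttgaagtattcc
RPL1B (chrVII:254641-254700, plus strand): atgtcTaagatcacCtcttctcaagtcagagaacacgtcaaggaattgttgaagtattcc
These windows hold 9 differences for RPL17, 10 for RPL9, 6 for RPL20, 14 for RPL16 and 2 for RPL1.

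Over whole coding sequences the copies were 86.5% (RPL16) to 99.4% (RPL1) identical, and 7 of the 16 pairs reached 95%. In the 15 pairs of equal coding length, 407 of 453 differing bases (89.8%) stood at the third position of a codon. The share of 50-base windows of a coding sequence that recur elsewhere in the genome was 81.0% for RPL1, 72.7% for RPL4, 60.9% for RPL11, 42.1% for RPL14 and 28.4% for RPL2, and at most 14.8% for the other members. It was 0 for 9 members: RPL3, RPL5, RPL10 and both copies of RPL6, RPL16 and RPL17. The treatment of reads matching several places is not stated in these sources, so values of single copies are uncertain where these shares are high, by an amount that is not known. No member overlapped another gene of the RefSeq annotation.

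Libraries held 8749240 to 10531980 reads on open reading frames in assemblies and 8948906 to 10281076 in total RNA. The values are read counts divided by 1 size factor per library, so every fold change below is relative to the median gene unless another scaling or fit is named. Separate cultures or reactions are not named in the labels. The p-values therefore reflect the spread among these 6 libraries alone, and that spread could be technical. Libraries 1 and 2 of total RNA were closer to each other (chi-square per degree of freedom 1.56) than the other pairs within a group (11.7 to 57.5). Results were therefore also computed with their mean as 1 sample.

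Together the 35 mRNAs took 1.84%, 1.48% and 1.25% of the reads of assembly libraries 1, 2 and 3, against 5.38%, 5.40% and 5.67% of those of total RNA libraries 1, 2 and 3 (1.52% ± 0.296 and 5.49% ± 0.162, mean ± SD, n = 3 each). The groups did not overlap. Of the 35 genes, 31 were lower in assemblies at an adjusted p below 0.05 (limma on log2(value + 1)), 0 were higher and 4 were not called; of all 5670 genes, 40.8% were lower and 41.3% higher by the same rule. By an unadjusted p below 0.05, by edgeR and by DESeq2 the number of higher members was also 0. The 31 adjusted p-values lay between 3.17e-07 and 0.0226 (limma). The median log2 fold change of the members was -1.70, against 0.02 over all genes tested. In total, 26 members were called lower with an estimated fall of at least 2-fold, as were 25.8% of all genes. The test was against no change, not against a 2-fold fall. Scaling every library to the same total instead shifted the median of all genes to -0.51; all 35 members were then lower, against 53.9% of all genes, among them the 4 not called relative to the median gene. After quantile normalisation 35 were also lower, against 37.1%. In 33 members the 3 assembly values and the 3 total RNA values did not overlap, as in 85.3% of all genes; the groups overlapped for RPL4B and RPL17B.

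**Figure D1:**
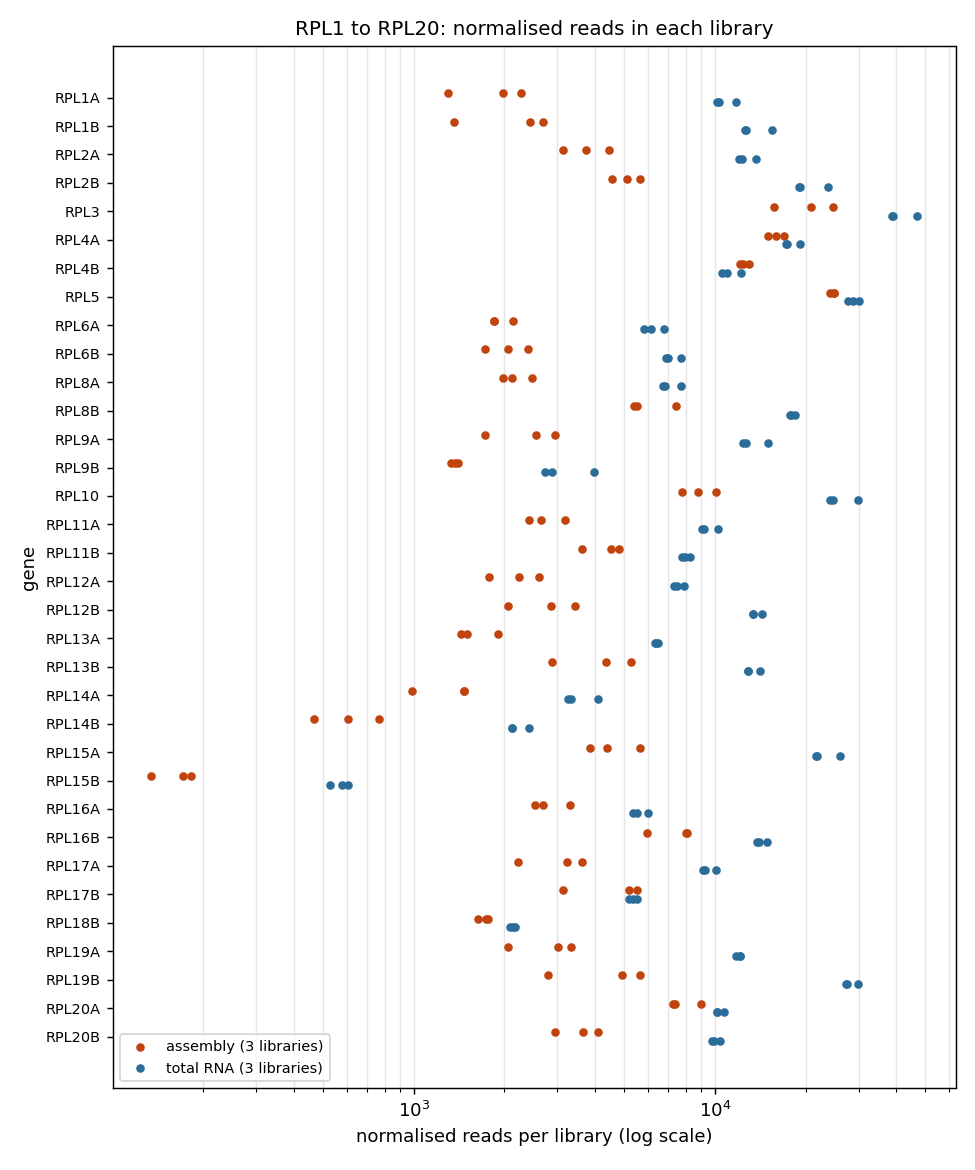
Normalised reads (log scale, x axis) of each of 34 genes (y axis) in 3 assembly libraries and 3 total RNA libraries, 1 point per library. The assembly points lie left of the total RNA points for most genes, while those of RPL4B and RPL17B overlap.

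The members varied together from library to library. Among assemblies, library 3 had the lowest value for 29 of the 35 genes, against 37.4% of all tested genes. Among total RNA libraries, library 3 had the highest value for 35 of the 35 genes, against 50.4% of all tested genes. The median log2 difference of the members from the total RNA mean was -1.49, -1.74 and -1.97 in assembly libraries 1, 2 and 3.

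Around the peptidyl transferase centre the genes parted, with 4 of 6 lower and RPL4A and RPL4B not called (median log2 fold change -1.31). RPL3 (YOR063W), which reaches with a long extension towards the catalytic centre, lies on chromosome XV at 444686 to 445849 (open reading frame, RefSeq, R64) and has no intron. It had 20784, 24629 and 15695 normalised reads in assembly libraries 1, 2 and 3, against 38815, 39067 and 46926 in total RNA libraries 1, 2 and 3. Every assembly value was below every total RNA value, and the limma log2 fold change was -1.05 (SE 0.18, adjusted p = 0.00016).

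RPL10 (YLR075W), which joins the subunit late, beside the transfer RNA sites, lies on chromosome XII at 282927 to 283592. It had 10084, 8756 and 7783 normalised reads in assemblies, against 24107, 24635 and 29791 in total RNA. The groups stood well apart, with a log2 fold change of -1.56 (SE 0.15; limma, adjusted p = 1.44e-06). RPL2A and RPL2B, whose protein holds the RNA next to the catalytic centre, had log2 fold changes of -1.76 and -2.01.

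RPL4A and RPL4B, whose protein sends a loop into the tunnel wall, were the members of this group that were not called. RPL4A (YBR031W), on chromosome II at 300166 to 301254, had 17008, 15925 and 15015 normalised reads in assemblies, against 17373, 17221 and 19187 in total RNA. Its log2 fold change was -0.17 (95% interval -0.45 to 0.12; limma, adjusted p = 0.258). RPL4B (YDR012W), on chromosome IV at 471853 to 472941, had 12394, 12129.5 and 12968 normalised reads in assemblies, against 10959, 10589.8 and 12227 in total RNA. Library 3 of total RNA lay within the range of the assemblies, and the log2 fold change was 0.15 (95% interval -0.13 to 0.43; limma, adjusted p = 0.284), which turned to -0.41 when all libraries were given equal totals. As 72.7% of their windows recur elsewhere in the genome, the sum of the copies is given too. It was 28479.8 ± 799 normalised reads in assemblies, against 29186 ± 1947 in the total RNA libraries (SD, n = 3 each), a ratio of means of 0.976. Whether the sum is firmer than the single values depends on the treatment of reads matching several places, which is not stated.

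Of the 5S particle, in which a small ribosomal RNA is carried into the subunit by 2 proteins, RPL11A and RPL11B were lower and RPL5 was not called. RPL5 (YPL131W), on chromosome XVI at 303121 to 304014, had 24891, 24939 and 24046 normalised reads in assemblies, against 28824, 27683 and 30060.4 in total RNA. All assembly values lay below all total RNA values, but the difference was small: the log2 fold change was -0.23 (95% interval -0.51 to 0.06; limma, adjusted p = 0.125), and edgeR on the recovered reads called it lower (-0.33, adjusted p = 0.0302). Leaving out assembly library 1 also gave a call (-0.24; limma, adjusted p = 0.033). RPL11A and RPL11B had log2 fold changes of -1.80 and -0.90; as 60.9% of their windows recur elsewhere, their reads are hard to tell apart.

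Of the 5 role groups, the genes of the stalks and their bases had the lowest median, a log2 fold change of -2.42 with 6 of 6 lower. RPL1A and RPL1B encode the protein of the L1 stalk, which moves with the outgoing transfer RNA. RPL1B (YGL135W), on chromosome VII at 254641 to 255294, had 2693, 2427 and 1363 normalised reads in assemblies, against 12542, 12698 and 15436 in total RNA. RPL1A (YPL220W), on chromosome XVI at 135790 to 136443, had 2269.5, 1981 and 1297 in assemblies, against 10127, 10342 and 11715 in total RNA. Both copies were low in all assemblies and lowest in library 3. Their log2 fold changes were -2.70 (SE 0.22; limma, adjusted p = 4.64e-07) and -2.57 (SE 0.19; limma, adjusted p = 3.27e-07), 6.51-fold and 5.95-fold lower. As their reads can hardly be told apart, the sum of the copies is given too: 4010.2 ± 1202 normalised reads in assemblies, against 24287 ± 2488 in the total RNA libraries (SD, n = 3 each). RPL12A and RPL12B, whose protein sits at the base of the stalk that recruits translation factors, had log2 fold changes of -1.79 and -2.33.

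RPL9A and RPL9B, whose protein lies near the same base, fell by unequal amounts. RPL9A (YGL147C), on chromosome VII at 227754 to 228329, had 2949, 2552 and 1719 normalised reads in assemblies, against 12359.8, 12633 and 15036 in total RNA. RPL9B (YNL067W), on chromosome XIV at 499681 to 500256, had 1402, 1367 and 1326 in assemblies, against 2725, 2881 and 3961 in total RNA. The groups did not overlap for either copy. The log2 fold changes were -2.50 (SE 0.19; limma, adjusted p = 3.44e-07) for RPL9A and -1.20 (SE 0.15; limma, adjusted p = 1.21e-05) for RPL9B.

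At the tunnel exit, 3 of 4 genes were lower. RPL19B (YBL027W), whose protein spans from the exit towards the small subunit, had the lowest log2 fold change of all 35 genes and lies on chromosome II at 168423 to 169376, with an intron of 384 nt. It had 5618, 4906 and 2799 normalised reads in assemblies, against 27476, 27324 and 29897 in total RNA. Every assembly value was far below every total RNA value; the log2 fold change was -2.73 (SE 0.22; limma, adjusted p = 4.31e-07), or 6.62-fold lower. RPL19A had -2.13.

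RPL17A and RPL17B, whose protein lines the tunnel near its exit, have no 50-base window in common. RPL17A (YKL180W), on chromosome XI at 109269 to 110129, had 3628, 3218 and 2211 normalised reads in assemblies, against 9117, 9252 and 10061 in total RNA. RPL17B (YJL177W), on chromosome X at 90786 to 91657, had 5521, 5201 and 3137 in assemblies, against 5204, 5325 and 5508 in total RNA. RPL17A was lower in every assembly, while for RPL17B assembly library 1 lay just above the total RNA range, library 2 just below it and library 3 well below it. The log2 fold changes were -1.68 (SE 0.17; limma, adjusted p = 2.51e-06) for RPL17A and -0.25 (95% interval -0.67 to 0.17; limma, adjusted p = 0.234) for RPL17B, and that of RPL17B was 0.0038 without assembly library 3.

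The 16 genes for proteins of the body of the subunit, RPL6, RPL8, RPL13, RPL14, RPL15, RPL16 and RPL20 among them, were all lower, with a median log2 fold change of -1.69 and a range from -2.34 (RPL15A) to -0.32 (RPL18B). These proteins mostly bind and hold folds of the ribosomal RNA. RPL15A (YLR029C), on chromosome XII at 201976 to 202590, had 5659.8, 4384 and 3845 normalised reads in assemblies, against 21792, 21654 and 26013 in total RNA. RPL15B (YMR121C), on chromosome XIII at 509734 to 510348, had 183, 172 and 134 in assemblies, against 576, 528 and 606 in total RNA. Both copies were lower in all assemblies although their levels differ widely, with log2 fold changes of -2.34 (SE 0.16; limma, adjusted p = 3.17e-07) and -1.81 (SE 0.15; limma, adjusted p = 4.37e-07).

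RPL18B (YNL301C), on chromosome XIV at 63570 to 64562, had 1758, 1630.4 and 1742 normalised reads in assemblies, against 2130.1, 2094 and 2167 in total RNA. It was lower by a small margin, without overlap of the groups. The log2 fold change was -0.32 (SE 0.12; limma, adjusted p = 0.0226). The call of RPL18B was lost without assembly library 2, or without any of the 3 total RNA libraries (limma, adjusted p 0.0584 to 0.0982), and with total RNA libraries 1 and 2 averaged (adjusted p = 0.087). The call of RPL20A, with -0.40 the next smallest, was lost in the same cases (limma, adjusted p 0.0553 to 0.0601). With coding length fitted out both were called higher, RPL18B with 0.70 (limma, adjusted p = 0.000133) and RPL20A with 0.65 (limma, adjusted p = 7.17e-05).

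RPL16A and RPL16B both fell. RPL16A (YIL133C), on chromosome IX at 98527 to 99416, had 3303, 2688 and 2534 normalised reads in assemblies, against 5329.7, 5506 and 5977 in total RNA. RPL16B (YNL069C), on chromosome XIV at 493956 to 495001, had 8093, 8044 and 5938 in assemblies, against 13975, 13844 and 14870.4 in total RNA. Every assembly value of either copy was below its total RNA values, with log2 fold changes of -0.99 (SE 0.14; limma, adjusted p = 2.9e-05) and -0.97 (SE 0.15; limma, adjusted p = 7.47e-05). RPL14B (YHL001W), the third lowest member by level, had 765, 606 and 466 normalised reads in assemblies, against 2126, 2126 and 2416 in total RNA (log2 fold change -1.88, SE 0.17; limma, adjusted p = 8.29e-07). Both copies of RPL6 (-1.68 and -1.81), RPL8 (-1.70 and -1.57) and RPL13 (-1.99 and -1.72) lay close to the median of all members.

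Whether the copies of a pair changed by different amounts was tested directly, on the log2 ratio of copy A to copy B within each library, in which the scaling of the libraries cancels. The difference was called in 11 of the 16 pairs (limma, adjusted over all 61 pairs of genes in the table whose symbols end in A and B, of which 59 are ribosomal). Of those 61 pairs 72.1% were called, so that the share among RPL1 to RPL20 is near that background. The same 11 pairs were called when the test was adjusted over 725 pairs of reciprocal best protein matches of the whole genome, of which 59.9% were called. The median absolute difference was 0.48 on the log2 scale in the 16 pairs, 0.60 in the 61 and 0.60 in the 725. Copy B had the higher log2 fold change in 6 of the 11 called pairs and copy A in 5.

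**Figure D2:**
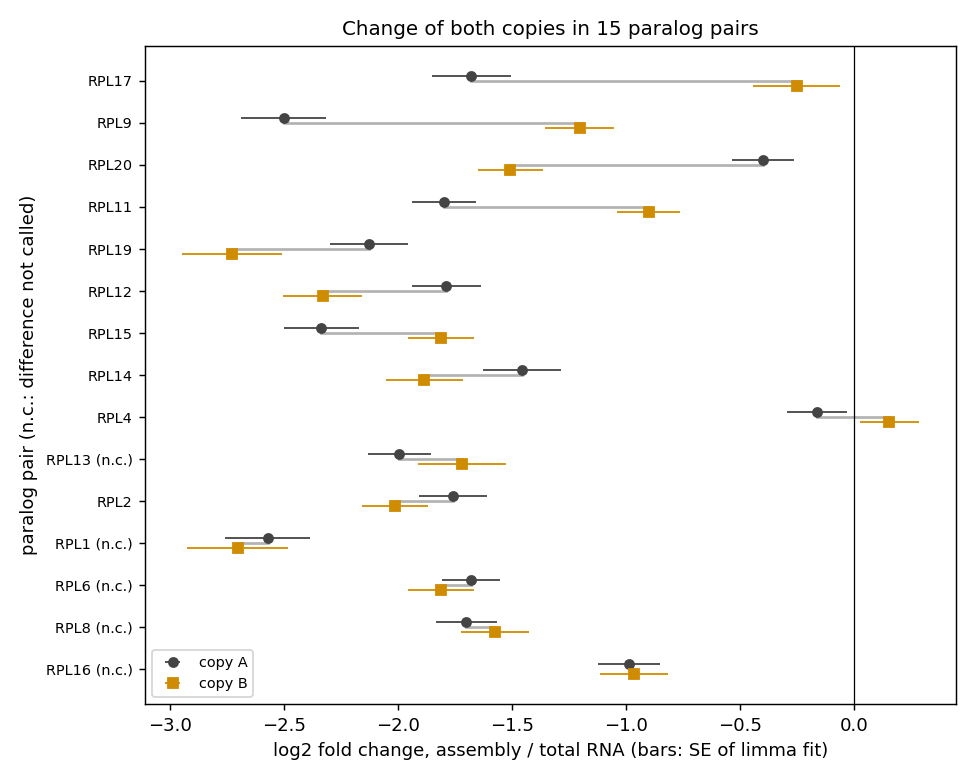
Log2 fold change, assembly over total RNA (x axis), of copy A (circles) and copy B (squares) in 15 paralog pairs (y axis), ordered by the size of the difference, with bars for the SE of the limma fit. RPL17, RPL9 and RPL20 stand at the top with gaps of over 1, and the copies of RPL16 nearly coincide.

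In RPL17 the balance of the copies turned over. RPL17B made up 60.3%, 61.8% and 58.7% of the reads of the pair in assemblies 1, 2 and 3, against 36.3%, 36.5% and 35.4% in total RNA. The difference in log2 fold change, A minus B, was -1.43 (SE 0.09; limma, adjusted p = 2.5e-06). RPL9B made up 36.9% ± 5.93 of its pair in assemblies, against 19.2% ± 1.49 in the total RNA libraries (n = 3 each), with a difference of -1.30 (SE 0.17; limma, adjusted p = 0.000142). In both pairs the shares of the groups did not overlap, as in 13 of all 16 pairs, among them RPL1 and RPL6, whose differences were not called. The coding sequences of the copies have the same length, as in 15 of the 16 pairs.

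RPL20 and RPL11 followed, and are named after their values were seen. RPL20A had 8984, 7278 and 7345 normalised reads in assemblies, against 10147, 10144 and 10738 in total RNA. RPL20B had 3645, 2949 and 4095 in assemblies, against 9921, 9815 and 10386 in total RNA. The copies were level in total RNA and apart in assemblies: RPL20A made up 68.8% ± 4.01 of the pair in assemblies, against 50.7% ± 0.153 in the total RNA libraries (SD, n = 3 each; difference 1.11, SE 0.13; limma, adjusted p = 7.57e-05). RPL11B made up 61.0% ± 4.82 of its pair in assemblies, against 45.7% ± 0.883 in the total RNA libraries (n = 3 each; difference -0.90, SE 0.14; limma, adjusted p = 0.000446). As 60.9% of the windows of RPL11 recur elsewhere, its shares are uncertain.

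Smaller differences were called for RPL19 (0.60), RPL12 (0.54), RPL15 (-0.53), RPL14 (0.43), RPL4 (-0.32) and RPL2 (0.25), with adjusted p from 0.000446 to 0.0275 (limma). As 72.7% of the windows of RPL4, 42.1% of RPL14 and 28.4% of RPL2 recur elsewhere, their differences are less certain. That of RPL2 was lost without assembly library 1 or any of the 3 total RNA libraries (limma, adjusted p 0.0659 to 0.144) and with total RNA libraries 1 and 2 averaged (adjusted p = 0.0745). The copies of RPL1, RPL6, RPL8, RPL13 and RPL16 were not called different. Their 95% intervals, A minus B, were -0.08 to 0.34 for RPL1, -0.09 to 0.35 for RPL6, -0.34 to 0.09 for RPL8, -0.60 to 0.05 for RPL13 and -0.27 to 0.22 for RPL16. As 81.0% of the windows of RPL1 recur elsewhere, its interval is less certain than those of the other pairs not called. RPL13 was called without assembly library 3 (-0.44; limma, adjusted p = 0.000114).

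**Figure D3:**
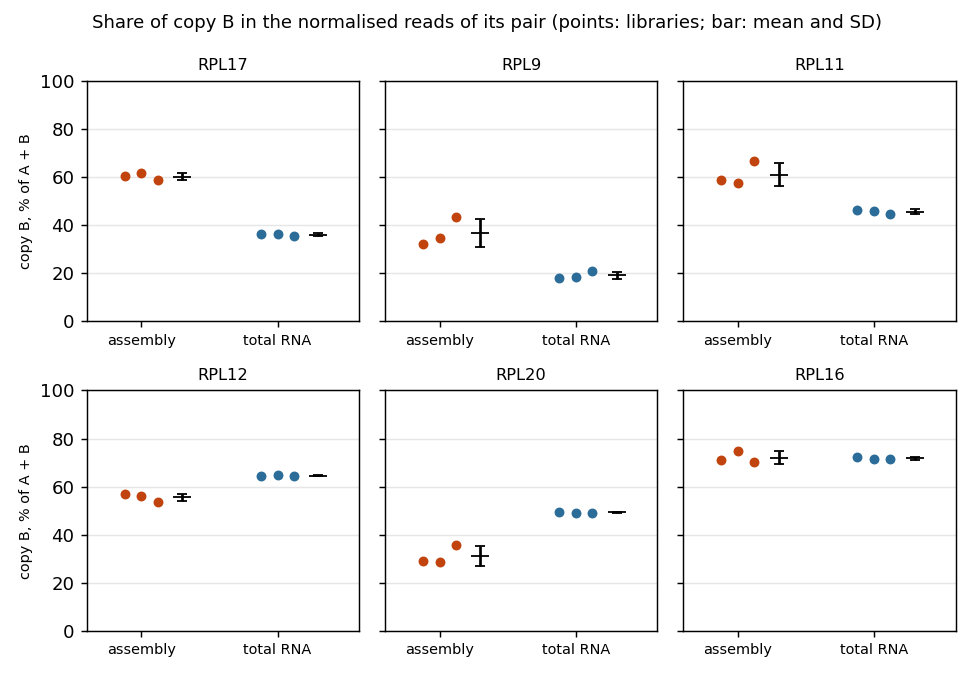
Share of copy B in the summed normalised reads of its pair (y axis, percent) in assemblies and in total RNA, with 1 point per library and a bar for the mean and SD of 3 libraries, for 6 pairs. The share of copy B is larger in assemblies for RPL17, RPL9 and RPL11, smaller for RPL12 and RPL20 and level for RPL16 (72.0% and 71.8%).

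The coding sequences of the members run from 417 nt (RPL14A and RPL14B) to 1164 nt (RPL3). Spearman's rank correlation between log2 fold change and coding length was 0.119 over the 35 genes and 0.675 over 5513 tested genes with a RefSeq coding sequence; paralogs share their length and are not independent points. The 20 members of 450 to 600 nt alone ran from -2.73 (RPL19B) to -0.25 (RPL17B). The GC content of the coding sequences lay between 40.3% and 48.2%. An intron of 147 to 506 nt interrupts 18 members. Of these, 17 were lower, with a median of -1.70, and of the 17 without an intron 14 were lower, with a median of -1.70.

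**Figure D4:**
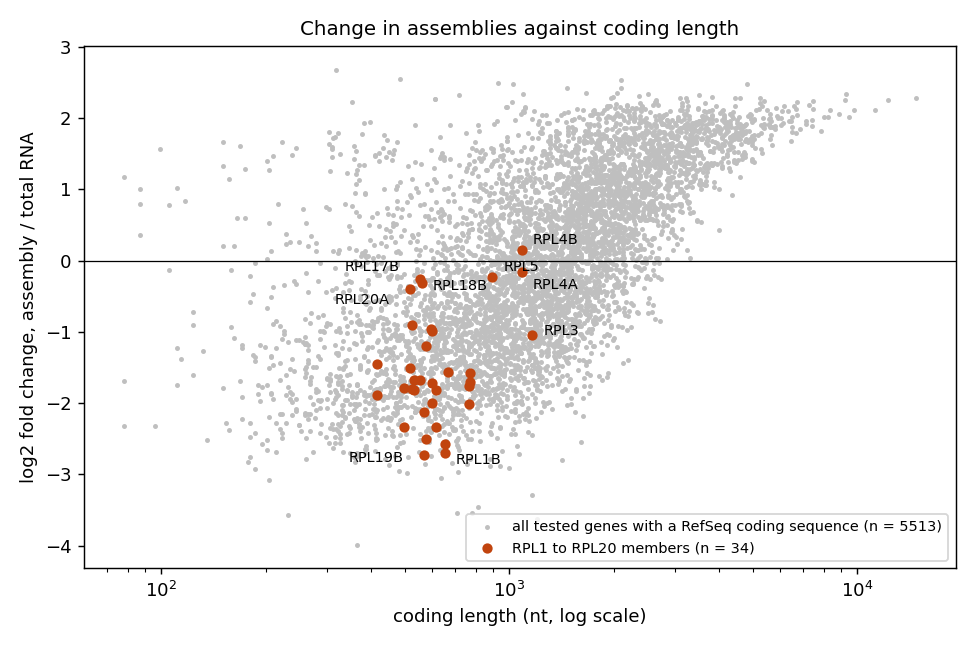
Log2 fold change, assembly over total RNA (y axis), against coding length (x axis, log scale) for 5513 tested genes (grey) and 34 members (coloured), 1 point per gene. The members lie among short genes and spread from -2.73 for RPL19B to 0.15 for RPL4B, with RPL17B, RPL18B and RPL20A above other members of their length.

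Since longer mRNAs were higher in the assemblies, the test was repeated after coding length had been fitted out of each library. Then 25 members were lower and 6 higher, against 36.5% and 34.2% of 5504 genes, and the median of the members was -0.74, against -0.04 over all genes. The 6 higher ones were RPL17B (0.77), RPL18B (0.70), RPL20A (0.65), RPL4B (0.53), RPL5 (0.41) and RPL4A (0.22), with adjusted p from 7.17e-05 to 0.0233 (limma). Those not called were RPL9B, RPL11B, RPL16A and RPL16B. With GC content also fitted out, RPL17B, RPL18B and RPL20A stayed above 0 and called (0.59, 0.45 and 0.63), RPL4A turned lower (-0.40), 25 members were lower and 3 higher, against 35.4% and 34.6% of 5504 genes. RPL1B (-1.78), RPL19B (-1.72) and RPL1A (-1.65) stayed lowest with length fitted out.

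**Figure D5:**
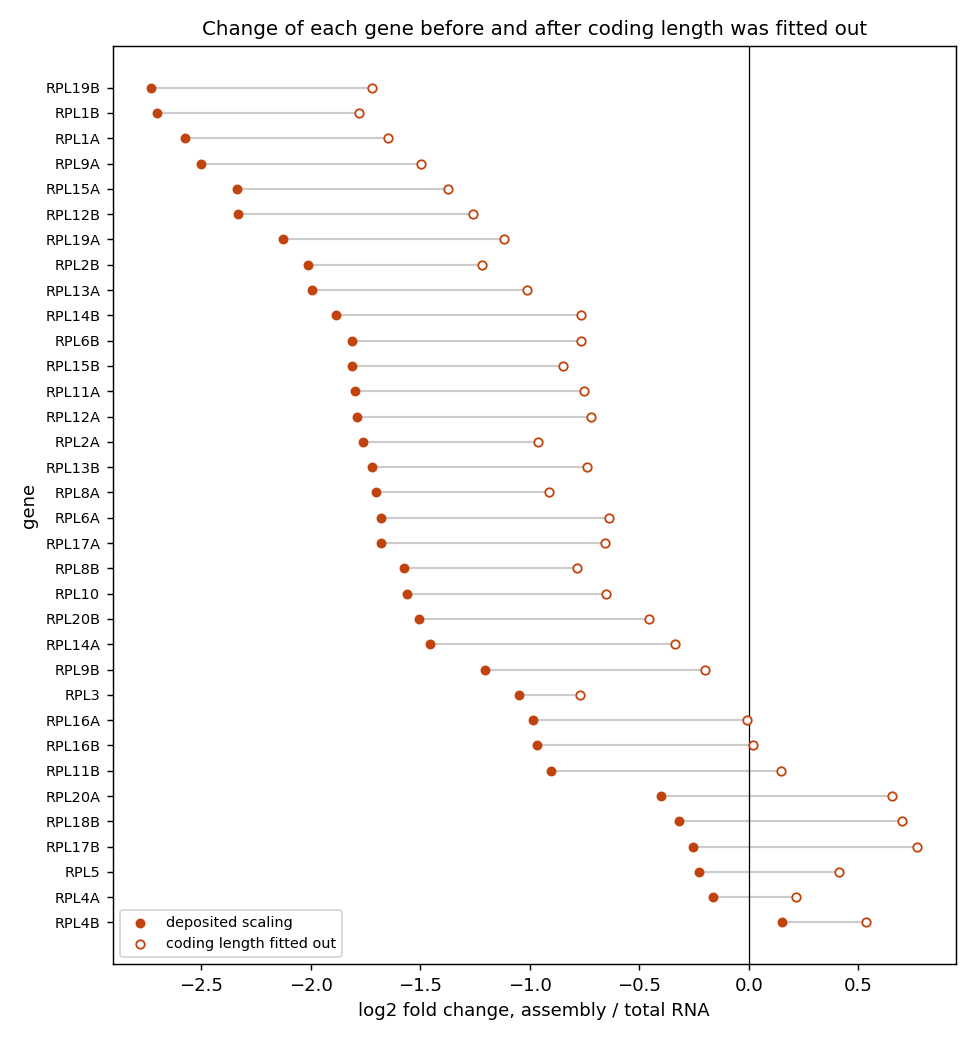
Log2 fold change, assembly over total RNA (x axis), of each of 34 genes (y axis) with the deposited scaling (filled) and after coding length was fitted out (open). The open points of 8 genes lie above 0, of which RPL17B, RPL18B, RPL20A, RPL4B, RPL5 and RPL4A were called higher and RPL11B and RPL16B were not called. RPL1B and RPL19B stay lowest.

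Levels were compared per kilobase (kb) of coding length. All 35 members lay above the median of 5513 genes in total RNA (307 normalised reads per kb), and 33 lay above the 95th percentile (4639). RPL19B stood highest, with 7792 ± 2572 normalised reads per kb in assemblies, against 49531 ± 2532 in the total RNA libraries (SD, n = 3 each). RPL10 had 13325 ± 1735 in assemblies and 39306 ± 4715 in total RNA, and RPL15A had 7528 ± 1515 and 37647 ± 4029 (n = 3 each). In total RNA the levels of RPL10 and RPL15A differed by less than their spread. The lowest were RPL14B, with 1468 ± 359 in assemblies and 5329.6 ± 402 in total RNA, RPL18B, with 3048 ± 124 and 3797 ± 65.0, and RPL15B, with 265 ± 41.3 and 927 ± 63.9 (n = 3 each). The highest level per kb in assemblies was that of RPL5, with 27545 ± 562, against 32277 ± 1330.0 in total RNA (n = 3 each).

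The other genes of the ribosome were read from the same limma fit. All 41 genes of RPL7 and RPL21 to RPL43 were lower (median log2 fold change -1.97, coding lengths with a median of 366 nt), against 31 of 35 members (median -1.70, median length 576 nt). Of 56 RPS genes, for the small subunit, 51 were lower and 1 higher (median -1.81), and of 5 genes of the stalk P proteins 4 were lower and RPP0 was not called (0.12). With coding length fitted out, 33 of the 41 were lower and 4 higher (median -0.89), and 39 of the RPS genes were lower and 8 higher (median -0.77). Among 12 dedicated chaperones, assembly partners and methyltransferases of large-subunit proteins 8 were lower and 1 higher (median -0.60). The shares over all genes were 40.8% and 41.3%. After coding length was fitted out, 8 of the 12 were lower and 0 higher (median -0.49), against 36.5% and 34.2% of 5504 genes. HPM1, which methylates the protein of RPL3, was lowest, with 145, 134 and 124 normalised reads in assemblies, against 481, 423 and 517 in total RNA (-1.81, SE 0.14; limma, adjusted p = 3.43e-07). LSG1, a GTPase of subunit maturation, was highest, with 1664, 1872 and 1579.5 in assemblies, against 1331, 1304 and 1349 in total RNA (0.36, SE 0.12; limma, adjusted p = 0.016), but it was not called by edgeR (adjusted p = 0.0612), nor without assembly library 2 or total RNA library 1 or 2 (limma, adjusted p 0.0560 to 0.0771). It was called lower after quantile normalisation (-0.34; limma, adjusted p = 0.00834) and with coding length fitted out (-0.30; limma, adjusted p = 0.0188). Of 6 transcription factors of ribosomal protein genes, 4 were higher, against 41.3% of all genes, HMO1 was lower and CRF1 was not called (median 1.41, median length 2268 nt). With coding length fitted out 3 were higher and 0 lower, and the median was 0.17. FHL1, which binds ribosomal protein promoters with its coactivator IFH1, was highest, with 1766, 2128 and 2619 normalised reads in assemblies, against 687, 689 and 708 in total RNA (1.63, SE 0.15; limma, adjusted p = 9.32e-07). It was 0.37 with coding length fitted out, and its call was lost with GC content and level also fitted out (0.21; limma, adjusted p = 0.0523). HMO1, a DNA-binding protein of the same promoters, had 1048, 1099 and 1185 in assemblies, against 1776, 1748 and 2010.1 in total RNA (-0.73, SE 0.12; limma, adjusted p = 0.000139). Its call was lost and its sign turned with coding length fitted out (0.095; limma, adjusted p = 0.474).

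The authors' deposited table gives fold changes of 0.157 (RPL19B) to 1.11 (RPL4B) for the members. In the authors' deposited table a p-value is listed for 29 of the 35, at most 4.44e-06. The entry is the text NS for 6: RPL4A, RPL4B, RPL5, RPL17B, RPL18B and RPL20A. Of these, RPL18B and RPL20A were called lower here (limma, adjusted p = 0.0226 and 0.0153).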

How the data were processed

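Per the labels' protocols, RNA was depleted with Ribo-Zero and made into paired-end libraries with the Nextera kit. The submitters' processing notes name DESeq 1.22.1, HTSeq, Bowtie 0.12.7, Trimmomatic 0.32, FastQC and build R64. Strand setting, annotation and treatment of multiply matching reads are not stated in these sources. For each open reading frame the authors deposited 1 signal value per library, called normalised reads per the file headers, with group means, the ratio of the means as fold change, and p-values whose adjustment is not stated. All nonzero values (100%) were whole multiples of 1 read within 0.01, so read counts were recovered. Of 6603 identifiers, 5915 matched a RefSeq gene with a coding sequence, and 4 lines held no values.

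Genes with a mean of at least 10 were tested with limma 3.58.1 (R 4.3.3; trend; log2(value + 1); assembly minus total RNA; two-sided; Benjamini-Hochberg adjustment over all genes; threshold 0.05). The recovered reads were tested with edgeR 4.0.16, which called 4703 of 5670 genes (2232 higher, 2471 lower), and with DESeq2 1.42.0, as alternatives. A planned search for paralogs by protein was replaced by symbols ending in A and B, as foreseen where no protein table was given; BLAST+ 2.17.0 matches of translated coding sequences (E at most 1e-10, at least 50% of both proteins) were added after the data were seen. Length, GC content and level were fitted out with splines of 4 degrees of freedom. Of the 35 members 1 is not reported here, nor is its pair, though both enter the counts and medians; for the others, values per library are given for the 3 lowest and 3 highest fold changes, single genes, the 3 most and the least different pairs, and the 3 highest and lowest levels. The lists came from general knowledge. Members, lists and tests were chosen with earlier results of these data known. The tests were also run on simulated counts, with the same spread set for both groups and few changed genes. These data differ from that setting: the members' median SD was 16.7% of the mean in assemblies and 6.27% in total RNA. The simulation therefore does not show how the tests behave on these data.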

Additional observations from a re-analysis of the deposited data

How the results depend on the processing

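The number of members lower in assemblies was 25 to 35 over all alternatives, within 1.5 times of 31, against 35.3% to 53.9% of all genes. It was 29 to 32 when each library was left out, with 0 higher. Over all genes, 38.6% to 41.4% were lower and 38.7% to 41.3% higher in those fits. With equal library totals the median of all genes was -0.51 and that of the members -2.26, with 35 lower; after quantile normalisation the members' median was -2.31. The median of the members was -0.74 with coding length fitted out (6 higher), -0.91 with GC content too (3 higher) and -0.99 with mean level too (4 higher). In these fits 34.2%, 34.6% and 34.5% of 5504 genes were higher. The members' median was -1.83 to -1.62 when each library was left out. Changes of sign were as follows, and their cause was not tested. RPL4B turned to -0.41 with equal totals, -0.42 after quantile normalisation, -0.092 with length and GC content and -0.11 with level also fitted out. With length, then GC content, then level fitted out, RPL17B became 0.77, 0.59 and 0.49, RPL20A 0.65, 0.63 and 0.57, RPL18B 0.70, 0.45 and 0.31, and RPL5 0.41, 0.15 and 0.24. RPL4A became 0.22 and RPL16B 0.017 with length fitted out, RPL11B 0.15 and then 0.070 with GC content, and RPL16A 0.0074 with both. RPL17B ran from -0.40 without assembly library 1 to 0.0038 without assembly library 3, and without assembly library 2 the difference between the RPL16 copies was 0.085.

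Paralog pairs called different numbered 10 to 12 when each library was left out, 11 over all reciprocal best matches, and 6 of the 9 pairs below 95% coding identity, the only ones that alternative holds. In the main fit 72.1% of the 61 pairs were called, and 59.9% of the 725 reciprocal best matches. The shares of all pairs called without each library, below 95% identity and with a replicate block are not given here. Weighted per kb, the members took 3.41% of assembly reads, against 8.20% of total RNA reads. Libraries with the same replicate number deviated together only weakly (correlations 0.0777, 0.167 and 0.276), and not every library correlated best with its own number. With the replicate number as a block, 31 members were lower, 0 higher, with a median of -1.70, and 11 pairs differed. Of all 5670 genes, 41.4% were lower and 41.9% higher in that fit. Members held at least 114 reads in each library.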

Other observations

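In 11 of the 16 pairs the copy with the lower level in total RNA had the higher log2 fold change. This was so in 9 of the 11 pairs called different, the exceptions being RPL14 and RPL20. The level in total RNA is also the denominator of the fold change, so these counts are a description. The same counts over the 61 pairs are not given here. The ratio of the levels of the copies in total RNA ran from 1.03 (RPL20) to 40.6 (RPL15), so their order is slight in some pairs.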
